A study of Mus musculus with 6 samples.

Results

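Microglia, the resident macrophages of the central nervous system, were followed here through 48 of the 54532 genes in the deposited count table of injured mouse spinal cord. The genes were chosen by symbol and placed in 4 groups by their known roles. They were 13 genes of homeostatic microglia, 16 of phagocytic or disease-associated microglia, 8 of macrophages and 11 shared by most myeloid cells. Each symbol matched 1 row of the table, and all 48 passed the filter on low counts. The tissue was spinal cord, taken from C57BL/6J mice that had all received a cord injury. In the trained group (3 libraries) mice walked on a rotarod, a rotating rod, after the injury, and in the untrained group (3 libraries) they did not. The labels place every library at day 28, counted from training. The labels leave unstated if a library is 1 mouse or a pool of mice, as they do the age of the mice or the piece of cord taken, and p-values then measure the spread between these libraries, which may be technical.

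Resting microglia survey the tissue with fine processes and carry purinergic receptors, the fractalkine receptor Cx3cr1 and the growth factor receptor Csf1r, which they need to survive. When they meet dying cells or myelin debris they lower that program and, through the receptor Trem2 and its adaptor Tyrobp, turn on genes for lipid handling, lysosomes and engulfment. After a cord injury, macrophages from the blood also enter the lesion and share many of these genes, so no single member marks microglia alone. In whole tissue, fewer cells of a type and less of an RNA per cell cannot be told apart.

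Total counts ran from 15814104 to 26092014 per library, and the deepest was trained replicate 1. The 3 counts used as a floor for detection correspond to 0.116 to 0.192 CPM, the count scaled here to library size with TMM factors. Every member was counted in every library. Markers of cord tissue were present throughout: 5 oligodendrocyte genes summed to 31924 to 40645 CPM and 5 neuronal genes to 5038 to 6545 CPM. Across all genes 10 of 16909 passed edgeR's quasi-likelihood test at an adjusted p below 0.05.

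None of the 48 members passed that test between trained and untrained cord, against 0.0591% of all genes tested. The fitted values nevertheless lay mostly on 1 side. In 43 of the 48 members the fitted level was lower in trained cord, as it was in 52.0% of all genes, and the median log2 fold change (trained over untrained) was -0.22 against -0.0080 for all genes. At an unadjusted edgeR p below 0.05, 9 members were lower and 0 higher, against 5.55% and 4.47% of all genes. In 6 members every trained library lay below every untrained one, and in 0 above, while 8.69% and 8.13% of all genes had such groups. These 6 were Cx3cr1, Cst7, Clec7a, Mertk, Adgre1 and Msr1, and 6 of 48 is 12.5%, not far above the share for all genes. The members are read from the same 6 libraries, so their counts are not independent observations.

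**Figure D1:**
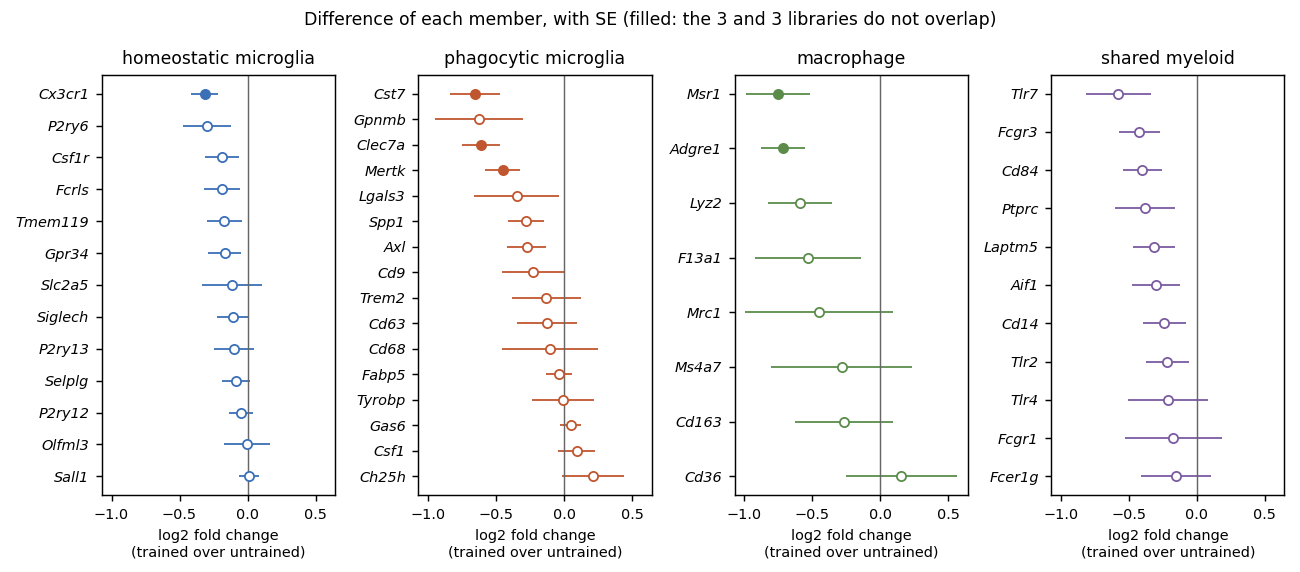
Log2 fold change (trained over untrained, x axis) of each of the 48 members with its standard error (bars), in 4 panels by role. Filled points are the 6 members whose 3 trained and 3 untrained libraries do not overlap, all of them below 0, and 43 of 48 points lie below 0.

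Levels were compared between genes per kilobase of exon (RPKM, from the scaled counts and the gene length in the table), over all 6 libraries. The most abundant member was Lyz2, the lysozyme of myeloid cells, at a mean of 243 RPKM, followed by Spp1, the secreted phosphoprotein osteopontin, at 209.7 RPKM and Tyrobp at 117 RPKM. The ranges of Lyz2 and Spp1 over the libraries overlapped, so their order is not set by these data. The strongest homeostatic member was Csf1r at 44.5 RPKM, while P2ry12, Tmem119, Selplg and Sall1 lay close together at 11.5, 13.5, 11.3 and 10.2 RPKM. Macrophage genes other than Lyz2 and Adgre1 were scarce. Mrc1, a mannose receptor gene, and the scavenger receptor genes Msr1, Cd36 and Cd163 were at 0.76, 0.72, 0.55 and 0.36 RPKM, and F13a1, a clotting factor gene of macrophages, was at 0.41 RPKM.

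**Figure D2:**
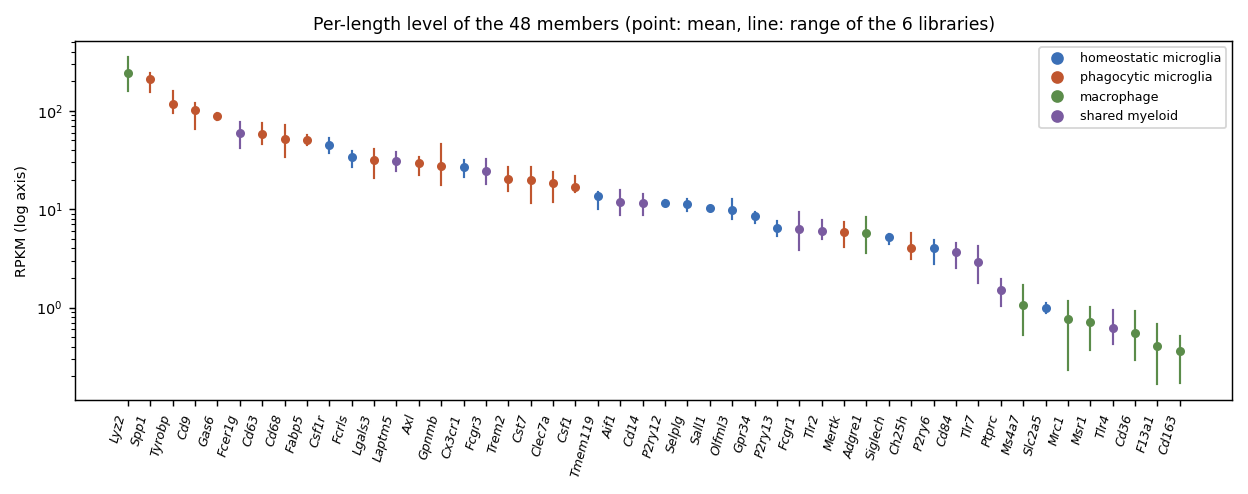
Mean RPKM of each member over the 6 libraries (points, log axis) with the lowest and highest library (lines), coloured by role. Lyz2 and Spp1 lead at 243 and 209.7 RPKM, and 6 of the 8 lowest members are macrophage genes.

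Homeostatic genes had small fitted differences: 12 of 13 log2 fold changes were below 0, with a median of -0.11. Over the fits that dropped 1 library, this median moved in both directions. It ran from -0.20 (trained replicate 3 dropped) to -0.084 (trained replicate 1 dropped). Dropping untrained replicate 3 gave -0.18, and dropping untrained replicate 1 gave -0.090. Among the purinergic receptors, P2ry12, which steers microglial processes towards ADP, was at 28.2, 28.9 and 29.0 CPM in the trained libraries (replicates 1, 2 and 3, an order kept throughout) and at 27.6, 30.0 and 31.5 CPM in untrained cord. The libraries of both groups were interleaved, and the log2 fold change of P2ry12 was -0.048 ± 0.09 (SE). P2ry13, another ADP receptor gene, was at -0.10 ± 0.14, and P2ry6, a UDP receptor gene tied to phagocytosis, at -0.30 ± 0.18. P2ry6 was at 7.98, 10.1 and 13.03 CPM in trained and 13.9, 11.1 and 12.8 CPM in untrained cord, with overlapping groups. Sall1, a transcription factor of microglial identity, was at 51.5, 54.8 and 55.5 CPM in trained and 56.7, 50.4 and 53.4 CPM in untrained cord. Its log2 fold change was 0.0099 ± 0.08, the only homeostatic value above 0.

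Cx3cr1, the receptor for neuronal fractalkine, had 101, 95.7 and 126 CPM in trained replicates 1, 2 and 3 and 141, 127 and 134 CPM in untrained ones. All trained libraries were lower, although trained replicate 3 came close to untrained replicate 2, at 126 against 127 CPM. The log2 fold change of Cx3cr1 was -0.32 ± 0.10 (edgeR adjusted p = 0.323). The gene (ENSMUSG00000052336, chr9:119901616-120069879) spans a region of the table that overlaps 9 other genes, 6 of them on the other strand. Part of its count may belong to them, for those 6 only if strand was not used. Csf1r stood at 179.9, 188 and 242 CPM in trained and 259.6, 203 and 232 CPM in untrained cord, with a log2 fold change of -0.19 ± 0.13. Trained replicate 3 again lay within the untrained range. Fcrls, an Fc receptor-like gene of rodent microglia, read 63.0, 67.9 and 90.4 CPM in trained and 89.9, 77.7 and 83.8 CPM in untrained cord. The lysophosphatidylserine receptor gene Gpr34 was at 15.0, 16.3 and 19.6 CPM against 19.0, 19.4 and 18.7 CPM, so that trained replicate 3 exceeded every untrained library for both Fcrls and Gpr34.

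Tmem119, a membrane protein gene used to tell microglia from other macrophages, was at 23.4, 30.3 and 34.9 CPM in trained and 34.4, 32.7 and 32.1 CPM in untrained cord, and the groups overlapped. The other homeostatic members were Siglech, an inhibitory lectin gene, at a log2 fold change of -0.11, Selplg, which encodes the P-selectin ligand, at -0.086, the fructose transporter gene Slc2a5 at -0.11 and the secreted factor gene Olfml3 at -0.0031. Slc2a5 had the lowest level of the 13, at 2.96 to 3.82 CPM.

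Phagocytic genes held wider differences, with 13 of 16 fitted lower under training and a median of -0.18 on the log2 scale. At an unadjusted edgeR p below 0.05 Clec7a, Mertk and Cst7 were lower. Without trained replicate 1 the median of the list was -0.012, without trained replicate 2 it was -0.11 and without trained replicate 3 it was -0.43. Clec7a, the receptor for beta-glucans also called dectin-1, was at 31.2, 36.6 and 46.9 CPM in trained and at 63.2, 57.0 and 53.9 CPM in untrained cord. Every trained library was below the untrained ones, and the means were 38.3 ± 7.98 and 58.0 ± 4.75 CPM (SD, n = 3 each). The log2 fold change was -0.61 ± 0.14 (edgeR adjusted p = 0.244). The table places Clec7a (ENSMUSG00000079293) at chr6:129461591-129472779 and annotates it as a polymorphic pseudogene. Cst7, which encodes cystatin F, an inhibitor of lysosomal cathepsins, read 11.5, 14.6 and 19.4 CPM in trained and 26.3, 20.1 and 24.8 CPM in untrained cord. The gap between the groups of Cst7 was narrow at 19.4 against 20.1 CPM, and its log2 fold change was -0.65 ± 0.19 (edgeR adjusted p = 0.321).

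Recognition of dying cells runs through the receptors Mertk and Axl and their ligand Gas6, which bridges them to exposed phosphatidylserine. Mertk was at 17.9, 21.2 and 25.6 CPM in trained and 32.4, 26.7 and 28.9 CPM in untrained cord, again without overlap. Its log2 fold change was -0.45 ± 0.13 (edgeR adjusted p = 0.283), and the table places it (ENSMUSG00000014361) at chr2:128698956-128802894, with Cst7 (ENSMUSG00000068129) at chr2:150570415-150578944. Axl was at 111, 125 and 166 CPM against 171, 160.1 and 154 CPM, and trained replicate 3 lay inside the untrained range. Gas6, at 231, 217 and 241 CPM in trained and 233, 207 and 226 CPM in untrained cord, had mixed groups and a log2 fold change of 0.049 ± 0.08.

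Promoters are shown for members whose trained and untrained libraries did not overlap, so that their start regions can be read beside the values. RefSeq windows (GRCm38.p6, 250 bases before to 50 after a start site) were found for 36 of the 48 members, and for Cx3cr1, Cst7, Clec7a and Mertk among these 6. Capitals mark matches on either strand to GAGGAA, the core bound by the myeloid factor PU.1, to the E-box CACGTG or to the AP-1 letters TGANTCA. The windows lie at chr6:129472730-129473029 on the minus strand for Clec7a, chr2:150570165-150570464 on the plus strand for Cst7, chr9:120068247-120068546 on the minus strand for Cx3cr1 and chr2:128698665-128698964 on the plus strand for Mertk. They read, 5′ to 3′ along the gene:

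Clec7a: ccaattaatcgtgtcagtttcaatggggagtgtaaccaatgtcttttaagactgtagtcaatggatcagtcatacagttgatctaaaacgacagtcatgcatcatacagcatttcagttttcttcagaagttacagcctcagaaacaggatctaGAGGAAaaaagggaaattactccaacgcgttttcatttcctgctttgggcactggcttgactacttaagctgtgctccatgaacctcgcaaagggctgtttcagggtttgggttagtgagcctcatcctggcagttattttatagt
Cst7: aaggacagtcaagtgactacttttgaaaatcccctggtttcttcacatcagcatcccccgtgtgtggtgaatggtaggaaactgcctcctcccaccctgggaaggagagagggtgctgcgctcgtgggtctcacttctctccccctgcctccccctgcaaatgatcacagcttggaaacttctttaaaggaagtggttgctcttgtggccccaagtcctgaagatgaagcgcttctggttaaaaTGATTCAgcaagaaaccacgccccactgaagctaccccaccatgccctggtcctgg
Cx3cr1: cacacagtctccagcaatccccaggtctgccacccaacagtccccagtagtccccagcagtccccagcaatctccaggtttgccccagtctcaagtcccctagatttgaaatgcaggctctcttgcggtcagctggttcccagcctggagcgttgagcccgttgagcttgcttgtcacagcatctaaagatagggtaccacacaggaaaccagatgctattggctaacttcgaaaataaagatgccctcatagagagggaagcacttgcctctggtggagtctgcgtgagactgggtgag
Mertk: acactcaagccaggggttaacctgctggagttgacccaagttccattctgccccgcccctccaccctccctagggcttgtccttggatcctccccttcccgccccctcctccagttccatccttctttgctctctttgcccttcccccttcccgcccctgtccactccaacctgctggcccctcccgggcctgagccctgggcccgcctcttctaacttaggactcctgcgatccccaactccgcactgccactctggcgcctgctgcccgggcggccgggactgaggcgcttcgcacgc

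The Clec7a window shown holds GAGGAA starting 96 bases before the start site, and the Cst7 window an AP-1 match starting 6 bases before it. Clec7a has another window, not printed, at chr6:129472736-129473035, in which GAGGAA starts 90 bases before the start site. The last 20 bases of the Mertk window did not match a GENCODE M21 transcript of that gene, while those of the other windows did. The Cx3cr1 and Mertk windows hold none of the 3 motifs. Over all members with a window, GAGGAA was in 21 of 44 windows (47.7%), against 28.3% of all 32851 windows of the same length. It was in 70.0% of 10 windows of shared myeloid genes and in 30.0% of 10 windows of homeostatic genes, and windows of 1 gene can overlap. TGANTCA was in 6 of 44 windows (13.6%, against 7.81% of all windows) and CACGTG in 2 of 44 (4.55%, against 7.15%). A match is a description of these letters and not of binding.

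Trem2, the lipid-sensing receptor of phagocytic microglia, had 75.6, 78.0 and 133 CPM in trained replicates 1, 2 and 3 and 109, 97.3 and 107 CPM in untrained ones. Trained replicates 1 and 2 were the lowest of the 6 and trained replicate 3 the highest. Tyrobp, its signalling adaptor, had the same layout, at 62.9, 64.8 and 107 CPM around untrained values of 78.8, 78.4 and 78.1 CPM. The log2 fold changes of Trem2 and Tyrobp were -0.13 ± 0.25 and -0.0078 ± 0.23, and the sign of each turned under at least 1 alternative. Lgals3, the lectin galectin-3, was at 38.6, 41.6 and 76.4 CPM against 72.5, 59.4 and 66.3 CPM, and trained replicate 3 again topped all libraries.

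Spp1 read 253, 311 and 373 CPM in trained and 396, 346 and 395 CPM in untrained cord. Its groups overlapped by trained replicate 3 alone, and the log2 fold change was -0.28 ± 0.13 (edgeR adjusted p = 0.518). Gpnmb, a glycoprotein gene of lipid-laden phagocytes, was at 121, 115 and 183 CPM in trained and 296, 173 and 176 CPM in untrained cord. Its log2 fold change was -0.63 ± 0.32, and -0.32 without untrained replicate 1, the highest library. The lysosomal and endosomal membrane genes Cd68 and Cd63 and the tetraspanin gene Cd9 were at -0.11 ± 0.35, -0.12 ± 0.22 and -0.23 ± 0.23, and the fatty acid-binding protein gene Fabp5 at -0.034 ± 0.10. Csf1, the ligand of Csf1r, and Ch25h, which makes 25-hydroxycholesterol, lay above 0 at 0.095 ± 0.14 and 0.22 ± 0.23.

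The macrophage list had the lowest median, -0.49 over 8 genes, with 7 fitted lower. Without trained replicate 1 its median was -0.093, and without untrained replicate 1 it was -0.22. Adgre1, which encodes the macrophage marker F4/80, was at 12.97, 11.5 and 17.8 CPM in trained and 26.7, 20.8 and 21.7 CPM in untrained cord. Its groups did not overlap and it had the smallest adjusted p of all members (log2 fold change -0.71 ± 0.16, edgeR adjusted p = 0.212). Msr1, a scavenger receptor for modified lipoproteins, was at 2.32, 3.71 and 4.22 CPM in trained and 6.45, 5.35 and 5.24 CPM in untrained cord, also apart, with means of 3.42 ± 0.981 and 5.68 ± 0.667 CPM (SD, n = 3 each; log2 fold change -0.75 ± 0.24, edgeR adjusted p = 0.324). Msr1 rests on 60 to 118 counts per library. The table places Adgre1 (ENSMUSG00000004730) at chr17:57358691-57483527 and Msr1 (ENSMUSG00000025044) at chr8:39581685-39642673.

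Lyz2 was at 222, 208 and 336 CPM in trained and 463, 329.6 and 362 CPM in untrained cord, where only trained replicate 3 reached the untrained range, at a log2 fold change of -0.59 ± 0.24 (edgeR adjusted p = 0.507). Its close copy Lyz1 had 7 to 15 counts per library. How reads that match both genes were counted is not known, so these counts do not show how many were shared. Mrc1 was at 1.47, 5.99 and 5.03 CPM in trained and 7.48, 4.09 and 5.05 CPM in untrained cord. F13a1 was at 1.12, 3.03 and 2.73 CPM against 4.53, 2.16 and 3.003 CPM. Trained replicate 1 was the lowest of the 6 libraries in both, and Mrc1 was at a log2 fold change of -0.45 ± 0.54. Ms4a7, a membrane protein gene of macrophages, Cd163 and the fatty acid translocase gene Cd36 were at -0.29 ± 0.52, -0.27 ± 0.36 and 0.15 ± 0.41.

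All 11 genes shared across myeloid cells were fitted lower under training, at a median of -0.30 on the log2 scale, and none had groups without overlap. The median was -0.17 without trained replicate 1 and -0.49 without trained replicate 3. At an unadjusted edgeR p below 0.05 Cd84, Fcgr3 and Tlr7 were lower. Fcgr3, an activating IgG receptor, was at 31.4, 33.2 and 43.7 CPM in trained and 56.4, 46.9 and 41.6 CPM in untrained cord (log2 fold change -0.42 ± 0.15, edgeR adjusted p = 0.416). The signalling chain Fcer1g that it needs was at 36.4, 42.8 and 67.5 CPM against 57.4, 48.6 and 56.4 CPM. Fcgr1, the high-affinity IgG receptor, was at 10.03, 12.04 and 24.1 CPM in trained and 15.7, 17.4 and 18.5 CPM in untrained cord. In Fcer1g and Fcgr1 trained replicate 3 was the highest of the 6 and the other trained libraries the lowest.

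Cd84, an adhesion receptor of the SLAM family, was at 15.9, 18.9 and 24.5 CPM in trained and 28.2, 24.5 and 25.2 CPM in untrained cord, its groups touching at 24.5 CPM (log2 fold change -0.40 ± 0.14, edgeR adjusted p = 0.385). Of the Toll-like receptors, Tlr7, which senses single-stranded RNA, was at 7.16, 8.58 and 12.7 CPM against 17.3, 10.6 and 14.1 CPM, at a log2 fold change of -0.58 ± 0.24 (edgeR adjusted p = 0.477). Tlr2, a receptor for bacterial lipoproteins, Tlr4, that for lipopolysaccharide, and its co-receptor Cd14 were at -0.22 ± 0.16, -0.21 ± 0.29 and -0.24 ± 0.16. Laptm5, a lysosomal membrane gene of blood cells, was at 91.5, 91.5 and 129.5 CPM in trained and 145, 117 and 126 CPM in untrained cord. Aif1, which encodes the microglial stain target Iba1, was at 13.4, 14.8 and 20.8 CPM against 17.7, 23.9 and 18.6 CPM, and the leukocyte phosphatase gene Ptprc, or CD45, at 18.9, 20.9 and 32.3 CPM against 35.9, 27.8 and 29.5 CPM. All 3 had overlapping groups, at log2 fold changes of -0.32, -0.30 and -0.38.

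**Figure D3:**
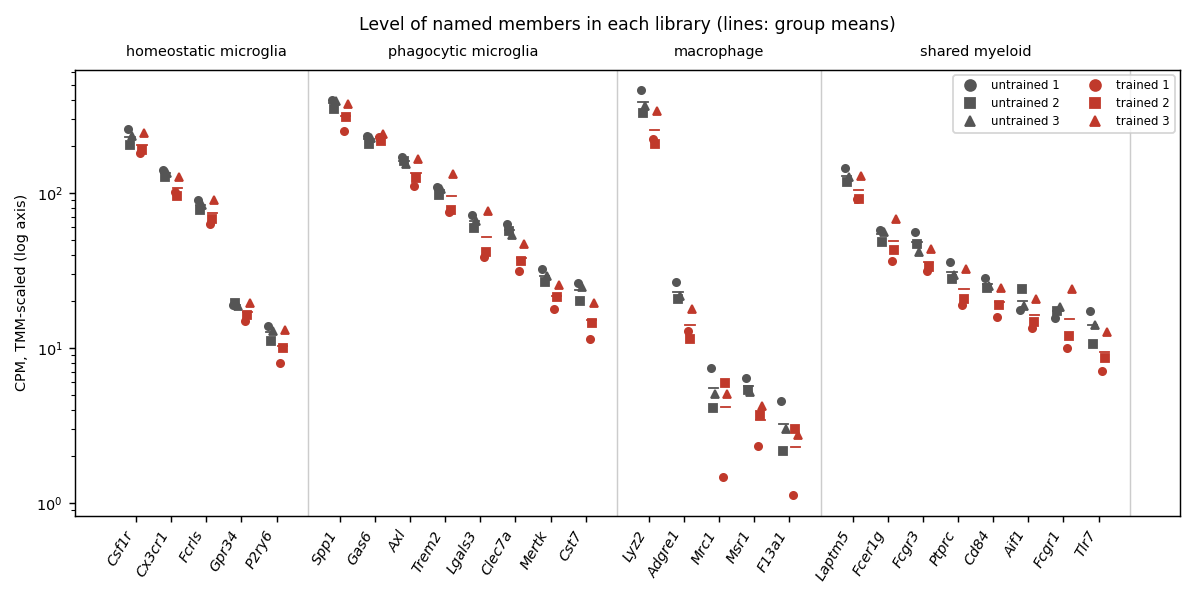
CPM (log axis) of the 26 members that the naming rule selects, in each untrained (grey) and trained (red) library, with group means as lines and the symbol giving the replicate. In Laptm5 trained replicates 1 and 2 sit at 91.5 CPM, below the untrained values of 117 to 145 CPM, and trained replicate 3 sits among them at 129.5 CPM, while in Trem2 trained replicate 3 is above all others at 133 CPM.

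The trained libraries differed more among themselves than the untrained ones. In 41 of 48 members (85.4%) the SD of log2 CPM was larger in the trained group, as it was in 55.5% of all genes. The median SD was 0.33 in trained and 0.15 in untrained cord. Trained replicate 1 lay below every untrained library in 40 of 48 members, against 5176 of all 16909 genes. For trained replicate 3 this held in 8 members, against 4982 of all genes. Trained replicate 3 was the highest of the trained group in 43 of 48 members, all 16 phagocytic and all 11 shared myeloid genes among them, and in 39.3% of all genes. It lay above every untrained library in 17 members (35.4%), against 30.0% of all genes, but the lists differed. The 17 were 10 of 16 phagocytic genes (62.5%), 5 of 13 homeostatic (38.5%), 2 of 11 shared myeloid (18.2%) and 0 of 8 macrophage genes. Trained replicates 1 and 2 were both below every untrained library in 34 of 48 members, and in 17.6% of all genes.

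The mean log2 CPM of a list, centred on the 6 libraries, showed the same layout in 3 of the 4 lists. For homeostatic genes it was -0.20, -0.14 and 0.12 in trained replicates 1, 2 and 3 and 0.14, 0.021 and 0.057 in the untrained ones. For phagocytic genes it was -0.40, -0.23 and 0.26 in trained and 0.23, 0.043 and 0.091 in untrained cord, so the highest and the lowest library were both trained. Shared myeloid genes were at -0.42, -0.31 and 0.25 against 0.33, 0.033 and 0.12. Macrophage genes differed in that trained replicate 1 stood alone, at -0.85, while trained replicates 2 and 3 were at 0.049 and 0.12 and the untrained libraries at 0.58, -0.13 and 0.23.

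**Figure D4:**
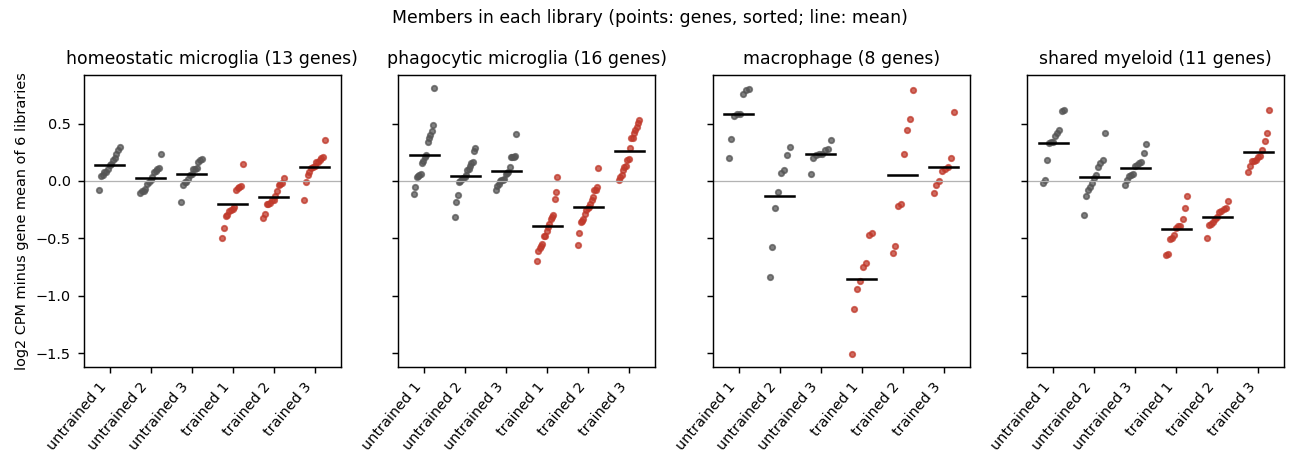
Log2 CPM of each member minus its mean over the 6 libraries (y axis), by library (x axis) and role, with genes as points and the list mean as a line. Trained replicates 1 and 2 lie lowest in the homeostatic, phagocytic and shared lists, and trained replicate 1 alone, at -0.85, in the macrophage list.

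Calls among the members depended on which libraries were in the fit. Without trained replicate 3, 14 of the 48 members passed edgeR's test, all lower in trained cord, against 0.861% of all genes tested in that fit: Adgre1, Axl, Cd84, Clec7a, Cst7, Cx3cr1, Fcer1g, Fcgr1, Fcgr3, Laptm5, Lgals3, Mertk, Ptprc and Trem2. The difference in Lgals3 was then -0.70 (edgeR adjusted p = 0.00218), in Clec7a -0.76 (0.00212 as the edgeR adjusted p) and in Trem2 -0.42 (edgeR adjusted p = 0.0129). Leaving out any of the other 5 libraries gave 0 members past the test, and without trained replicate 1 the members fitted lower were 34 of 48, with Trem2 at 0.016, Fcer1g at 0.026 and Fcgr1 at 0.069. Over all libraries DESeq2 called 3 members lower (Clec7a, Adgre1 and Cst7, adjusted p = 0.00330, 0.0121 and 0.0499), against 0.370% of all genes, and limma-voom called 0. With no filter on low counts edgeR called 8 members, all lower (Adgre1, Clec7a, Cst7, Cx3cr1, Fcgr3, Laptm5, Mertk and Tlr7), against 0.517% of all genes.

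**Figure D5:**
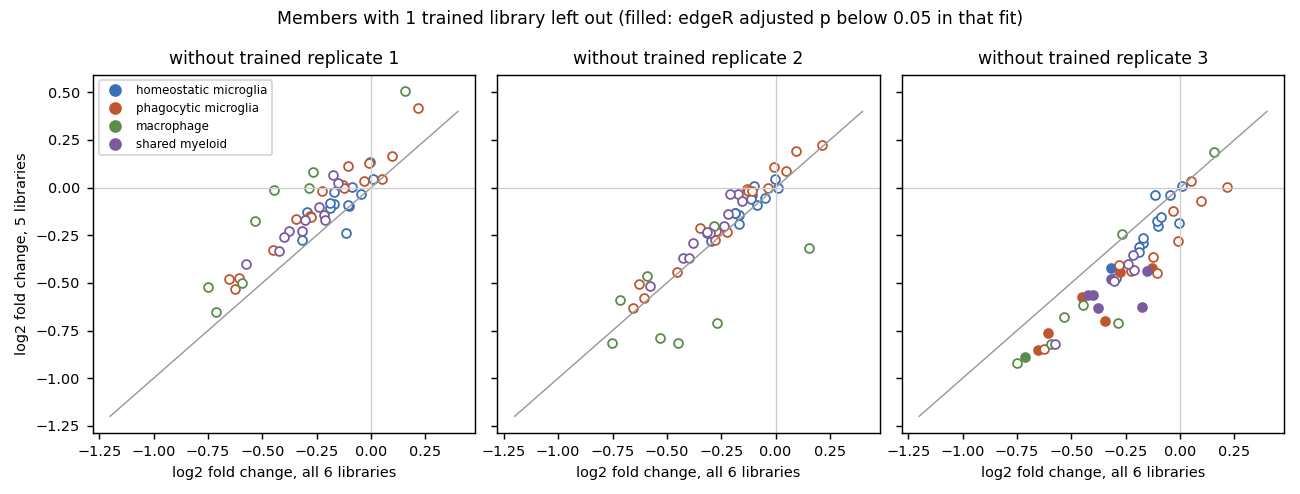
Log2 fold change of each member with all 6 libraries (x axis) and with 1 trained library left out (y axis), 1 panel per library, with the line of equality. Filled points passed edgeR's test in that fit: 14 without trained replicate 3 and 0 in the other panels.

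Other cell types that could carry or accompany these genes were read from lists of 5 markers each. Monocyte markers summed to 40.3 to 51.6 CPM in trained and 48.1 to 50.5 CPM in untrained cord, and dendritic cell markers to 26.1 to 27.6 and 28.0 to 29.8 CPM. Vcan alone gave 36.6 to 44.1 CPM of each monocyte sum, and the scarcer markers differed: Chil3 was at 1.86, 4.20 and 3.48 CPM in trained and 1.09, 0.541 and 0.447 CPM in untrained cord (log2 fold change 2.15, edgeR adjusted p = 0.111), while Ccr2 was at 0.697 CPM in trained replicate 1 and 2.35 to 2.75 CPM in the other libraries. Neutrophil markers were higher in every trained library, 29.6 to 61.3 against 14.1 to 21.5 CPM, with 5 of 5 fitted higher. Endothelial markers summed lower in every trained library, 294 to 345 against 354 to 412 CPM, though only 2 of the 5 had groups without overlap. Red blood cell markers summed to 61.1 to 144.6 against 36.6 to 67.8 CPM. Meningeal fibroblast markers were at 148 CPM in trained replicate 1, 481 and 537 CPM in trained replicates 2 and 3 and 299.6 to 483 CPM in untrained cord. On the same summed scale the macrophage genes were at 244.6 and 241.9 CPM in trained replicates 1 and 2, 376 CPM in trained replicate 3 and 368 to 519.8 CPM in untrained cord. Lyz2 alone gave 222, 208 and 336 CPM of the trained sums. Mrc1, F13a1, Cd163 and Cd36 were at 1.47, 1.12, 0.929 and 1.05 CPM in trained replicate 1. In trained replicate 2 these genes were at 5.99, 3.03, 2.78 and 3.27 CPM. Msr1 and Ms4a7 were also higher in trained replicate 2 than in trained replicate 1, while Adgre1 and Lyz2 were lower. Schwann cell markers summed to 827 to 1667 and 1335 to 1568 CPM, and T and B cell markers stayed at 3.68 to 8.31 and 42.7 to 62.6 CPM. Astrocyte markers summed to 6258 to 8157 CPM in trained and 7335 to 7801 CPM in untrained cord. No marker of these lists was at 0 in all libraries. The part of these cell types in the differences between members was not tested.

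Around the members, 6 lists of pathway genes were read in the same fit, and a further list of signals to microglia brought them to 93 genes, of which none passed edgeR's test over all genes. At an unadjusted edgeR p below 0.05, 16 of the 93 were lower (17.2%, against 5.55% of all genes) and 0 higher (against 4.47%). Fitted levels were lower in 73 of the 93, and in 52.0% of all genes. Without trained replicate 3, 12 of the 93 passed, all lower, against 0.861% of all genes in that fit, among them Inpp5d, Itgax, Dock2, Lyn and Tgfbr1, and without any other library 0 did. Further genes of microglial identity were fitted lower in 11 of 15 cases, with a median log2 fold change of -0.19. Entpd1, the ATP-degrading CD39, was at 19.3, 17.7 and 20.4 CPM in trained and 29.9, 22.9 and 22.6 CPM in untrained cord (log2 fold change -0.40 ± 0.12), and its groups did not overlap.

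Genes of Trem2 and Csf1r signalling were fitted lower in 10 of 13 cases (median -0.24), and the smallest p-values there belonged to Inpp5d and Cblb. The inositol phosphatase gene Inpp5d was at 26.4, 21.2 and 33.5 CPM in trained and 41.1, 32.9 and 37.4 CPM in untrained cord (log2 fold change -0.46 ± 0.16). The ubiquitin ligase gene Cblb was at 12.9, 14.02 and 14.2 CPM against 16.7, 17.3 and 16.1 CPM (-0.29 ± 0.11). The groups overlapped for Inpp5d and not for Cblb.

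Further genes of the disease-associated program were fitted lower in 14 of 15 (median -0.20). Lpl, which encodes lipoprotein lipase, was at 55.9, 54.7 and 60.9 CPM in trained and 71.9, 66.0 and 65.8 CPM in untrained cord (log2 fold change -0.25 ± 0.07), with groups apart. The integrin gene Itgax was at 22.5, 20.3 and 33.4 CPM against 38.9, 31.5 and 36.8 CPM (-0.50 ± 0.19), where trained replicate 3 overlapped the untrained range. Other engulfment genes were fitted lower in 12 of 15, though by little (median -0.056). Itgav, an integrin subunit gene, was at 103, 115 and 114 CPM in trained and 124, 125 and 126 CPM in untrained cord (-0.18 ± 0.07). Dock2, a guanine exchange factor gene, was at 15.4, 15.996 and 24.5 CPM against 25.5, 24.5 and 26.1 CPM (-0.45 ± 0.16), so that trained replicate 3 met the lowest untrained value.

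The Toll-like receptor pathway was fitted lower in 11 of 14 (median -0.18). Tlr13, a sensor of bacterial ribosomal RNA, was at 6.54, 7.72 and 8.44 CPM in trained and 11.1, 8.71 and 9.46 CPM in untrained cord (log2 fold change -0.37 ± 0.16), without overlap. The adaptor gene Traf6 was at 21.99, 25.5 and 24.1 CPM against 30.7, 25.1 and 27.9 CPM (-0.23 ± 0.10). The Fc gamma receptor pathway was fitted lower in 9 of 10 (median -0.24). Lyn, a kinase gene, was at 16.9, 17.1 and 24.4 CPM in trained and 27.7, 24.2 and 24.98 CPM in untrained cord (-0.40 ± 0.14). The NADPH oxidase subunit gene Cybb was at 9.84, 14.8 and 25.4 CPM against 34.96, 23.6 and 31.4 CPM (-0.86 ± 0.40). In Traf6, Lyn and Cybb the groups overlapped.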

How the data were processed

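RNA-seq was paired-end on an Illumina machine, per the labels' protocols. The authors deposited 1 table of raw counts per Ensembl gene, with gene symbols, coordinates and lengths. Of tools and builds, the submitters' processing notes list Bowtie 0.12.2, mm9 and mm8, without saying what each was for. The sources used here give neither the read counter nor the use of strand. Coordinates are those of GRCm38: 53585 of 54495 gene IDs found in GENCODE M21 (98.3%) had the same ends, and the gene length equalled the union of exons in 98.0%.

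From the counts, edgeR 4.0.16 (R 4.3.3) was run with TMM scaling, filterByExpr by group and a robust quasi-likelihood fit whose sole term was group; 16909 genes were kept. P-values were Benjamini-Hochberg adjusted over all of them, with a threshold of 0.05. An SE is the log2 fold change divided by the square root of F. Log2 CPM values have a prior count of 2. The step was tested on simulated data. No 2 libraries agreed within sampling noise. The alternatives tried were DESeq2 1.42.0, upper-quartile or RLE scaling, limma-voom (limma 3.58.1), other filters, a replicate block and leaving out each library.

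The members and lists were chosen with earlier results of these data known. Each member is accounted for, and values per library are given for those past the test, the 5 of smallest p and the 2 of highest CPM per group, those past it in a fit without 1 library and those whose groups do not overlap, and for each pathway list the 2 of smallest p. 1 gene that this rule selects is not reported here. P2ry12, Sall1, Tmem119, Tyrobp and Gpnmb were added to these, and Lyz1, Cx3cl1 and Il34 to the genes named, after their values were seen. Reads of overlapping genes cannot be told apart if strand was not used: 15 members overlap another gene of the table, among them P2ry12, P2ry13, Gpr34, Csf1r and Cx3cr1.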

Additional observations from a re-analysis of the deposited data

How the results depend on the processing

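The numbers of genes past edgeR's test over all genes (10) and among members (0) were 92 and 3 in DESeq2, 276 and 8 with no filter on low counts, and 4 to 221 and 0 to 14 when 1 library was left out. Among the fits without 1 library, the highest of both came without trained replicate 3. The cause was not tested. RLE or upper-quartile scaling, limma-voom and a filter of 1 CPM in 3 libraries left the members' count at 0. All 4 list medians stayed below 0 in the 13 alternatives, and that of phagocytic genes ran from -0.43 to -0.012 over the fits without 1 library.

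With the replicate number as a block 5 genes passed, 0 of them members. Libraries of the same number did not deviate together (correlations of -0.18, -0.091 and -0.13 for numbers 1, 2 and 3), none correlated best with its own number, and the numbers were not taken as pairs.

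The sign turned in 15 members under at least 1 alternative, and each of these had an edgeR adjusted p above 0.8. Upper-quartile scaling and no filter gave Olfml3 0.024 and 0.0052 and Tyrobp 0.020 and 0.00087, and limma-voom gave Cd36 -0.034. Over the fits without 1 library the log2 fold changes ran from -0.21 to 0.0063 for P2ry13, -0.032 to 0.063 for Sall1, -0.19 to 0.14 for Olfml3, -0.16 to 0.0030 for Selplg, -0.42 to 0.016 for Trem2, -0.28 to 0.13 for Tyrobp, -0.072 to 0.19 for Csf1, -0.45 to 0.11 for Cd68, -0.12 to 0.039 for Fabp5, -0.71 to 0.11 for Ms4a7, -0.71 to 0.081 for Cd163, -0.32 to 0.51 for Cd36, -0.63 to 0.069 for Fcgr1, -0.44 to 0.026 for Fcer1g and -0.43 to 0.12 for Tlr4. The other 33 members kept their sign. Depth limits Cd163, Cd36 and F13a1 most, with 20 to 83 counts per library.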

Other observations

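Signals that microglia receive from other cells were read as a list of 11 genes, of which 6 were fitted lower and 5 higher in trained cord (median log2 fold change -0.020), and none passed edgeR's test. Cx3cl1, the neuronal fractalkine that binds Cx3cr1, was at 250.5, 258 and 213 CPM in trained and 226, 197 and 226 CPM in untrained cord, a log2 fold change of 0.15 ± 0.09, on the other side of 0 from its receptor. Il34, the second ligand of Csf1r, was at 17.7, 20.7 and 21.2 CPM against 19.7, 18.1 and 17.7 CPM. Tgfbr1, a receptor for the TGF-beta that maintains microglial identity, was at 56.0, 54.2 and 69.6 CPM in trained and 86.7, 74.6 and 74.1 CPM in untrained cord (log2 fold change -0.39 ± 0.10, edgeR adjusted p = 0.255, and 0.0127 without trained replicate 3), without overlap. Cd200r1, the receptor for the restraining ligand CD200, was at 0.620, 0.803 and 1.30 CPM in trained and 1.47, 1.26 and 1.47 CPM in untrained cord.

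The balance between the phagocytic and homeostatic lists, as the difference of their mean centred log2 CPM, was -0.20, -0.089 and 0.14 in trained replicates 1, 2 and 3 and 0.092, 0.022 and 0.034 in the untrained ones. The trained libraries thus lay on both sides of the untrained values, and no trained library lay between them.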
